A study of Mus musculus with 4 samples.

Results

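The genes described here carry out the interferon response and the display of antigen on major histocompatibility complex (MHC) molecules. They were chosen by name: every probe set annotated to a single gene whose symbol begins with H2-, Ifi, Ifit, Irf or Stat with a digit, Oas, Gbp, Ifnar, Ifngr or Tap with a digit, or is B2m, Isg15, Usp18, Cd74, Bst2, Tapbp or Cxcl10, without the Irf2bp genes. The rule found 75 of 8251 named genes, read by 95 of 12422 probe sets, and no probe set of Bst2 was among them. The rule itself uses no measured value. RNA came from the prefrontal cortex of female mice. The control group was FVB/N, an inbred strain, and the other group consisted of mice that overexpress the human synaptic form of acetylcholinesterase (AChE), the enzyme that degrades acetylcholine. Each array held RNA pooled from 4 mice, with 2 pools per group. The sources used here give no age, no strain of the transgenic mice, no promoter of the transgene and no number of transgenic lines. Nothing says that the pools of a group came from separate mice. The p-values here reflect no more than the spread among the 4 pools, which may be technical. The test takes that spread partly from the probe set itself and, with more weight, from others of like intensity. Each value is the intensity of a probe set on a linear scale, and the number of arrays limits its precision.

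Interferons are cytokines made on infection. Type I interferons bind the receptor chains Ifnar1 and Ifnar2, and interferon gamma binds Ifngr1 and Ifngr2. Both receptors pass the signal through JAK kinases to STAT transcription factors, which act with interferon regulatory factors (IRFs) on the promoters of a large set of antiviral genes. The same signals raise MHC class I, whose heavy chains pair with B2m and are filled with peptides by Tap1, Tap2 and Tapbp, and MHC class II, which is held by the invariant chain Cd74. In the healthy brain these genes are known mostly from microglia and endothelial cells, and neurons also make class I.

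The promoters of Gbp7 and of some further members are shown first, since IRF and STAT factors act there. Each sequence is the 250 bases before a gene start (RefSeq, build GRCm38.p6), 5′ to 3′ on the strand of the gene, and capitals mark the core of the IRF site, AANNGAAA, on either strand. Gbp7 is the member whose change passed the test, H2-D1, H2-K1 and H2-Q4 are class I chains, B2m is their partner, and Isg15 encodes a ubiquitin-like protein induced by interferon. The windows are chr3:142530086-142530335 (+) for Gbp7, chr17:35262844-35263093 (+) for H2-D1, chr17:34000348-34000597 (-) for H2-K1, chr17:35379367-35379616 (+) for H2-Q4, chr2:122147437-122147686 (+) for B2m and chr4:156200819-156201068 (-) for Isg15.
Gbp7: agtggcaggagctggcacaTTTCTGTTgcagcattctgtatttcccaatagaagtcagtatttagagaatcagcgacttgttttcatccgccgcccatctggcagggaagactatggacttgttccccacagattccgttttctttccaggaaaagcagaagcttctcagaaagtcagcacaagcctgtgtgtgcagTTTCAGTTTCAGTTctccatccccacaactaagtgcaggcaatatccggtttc
H2-D1: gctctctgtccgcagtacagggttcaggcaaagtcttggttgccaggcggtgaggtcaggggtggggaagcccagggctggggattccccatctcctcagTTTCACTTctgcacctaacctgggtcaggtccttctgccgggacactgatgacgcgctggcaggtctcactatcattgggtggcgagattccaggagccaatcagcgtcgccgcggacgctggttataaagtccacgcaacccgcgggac
H2-K1: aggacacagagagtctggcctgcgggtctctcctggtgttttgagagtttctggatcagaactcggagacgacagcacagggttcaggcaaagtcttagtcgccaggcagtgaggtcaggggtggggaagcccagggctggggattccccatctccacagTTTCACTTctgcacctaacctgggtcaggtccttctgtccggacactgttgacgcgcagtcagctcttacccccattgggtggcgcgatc
H2-Q4: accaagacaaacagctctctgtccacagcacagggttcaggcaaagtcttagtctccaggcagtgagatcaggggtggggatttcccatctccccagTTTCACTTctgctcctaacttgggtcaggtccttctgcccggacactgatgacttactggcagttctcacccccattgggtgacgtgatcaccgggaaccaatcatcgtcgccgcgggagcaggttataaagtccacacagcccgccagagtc
B2m: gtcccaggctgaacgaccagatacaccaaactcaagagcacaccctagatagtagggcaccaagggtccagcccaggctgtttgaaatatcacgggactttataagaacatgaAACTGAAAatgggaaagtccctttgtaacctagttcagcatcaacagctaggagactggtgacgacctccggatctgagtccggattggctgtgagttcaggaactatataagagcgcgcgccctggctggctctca
Isg15: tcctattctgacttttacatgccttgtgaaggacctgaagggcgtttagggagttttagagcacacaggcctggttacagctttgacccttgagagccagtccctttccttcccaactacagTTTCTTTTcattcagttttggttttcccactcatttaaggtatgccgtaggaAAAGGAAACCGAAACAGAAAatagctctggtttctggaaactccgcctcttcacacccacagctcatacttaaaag
In Gbp7 a pair of overlapping cores lay 53 to 40 bases before the start. Isg15 had 3 chained cores between 76 and 57 bases before the start, and the class I chains had 1 core each, with the same letters, TTTCACTT, in all 3. The class I promoters resembled each other. H2-D1 and H2-K1 were identical at 167 of 190 aligned bases (87.9%), H2-D1 and H2-Q4 at 201 of 234 (85.9%) and H2-K1 and H2-Q4 at 157 of 180 (87.2%).

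Of the 75 genes, 59 had a promoter in the RefSeq table, and 26 of these (44.1%) held AANNGAAA in the 250 bases, against 21.6% of all 27025 promoters. Among member genes with a tested probe set, 12 of 31 promoters held it. Every promoter printed above holds this motif, so they do not stand for the members as a whole. Those of Ifitm3, Ifitm10 and Tapbp, whose values are given below, had 0 matches. The STAT site TTCNNNGAA was in 9 of 59 (15.3%) and in 7.18% of all. Both motifs were searched on both strands, and they can share bases. A match describes the letters and does not show that a factor binds.

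The arrays themselves had similar scales. Medians lay between 86.6 and 88.2, and 24% to 25.9% of the values of an array were at or below the floor of 19.675 under which intensities were not distinguished. Probe sets were tested when their mean lay above the 40th percentile, which corresponds to an intensity of 49.4. This left 7453 probe sets, among them 44 member probe sets of 36 genes, and the other 51 member probe sets were too dim to be tested. A change is given as log2 of transgenic over control with its standard error (SE), and a probe set passed when its adjusted p, from limma with Benjamini-Hochberg adjustment over all 7453, lay below 0.05.

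One of the 44 tested probe sets passed, that of Gbp7, which was lower in transgenic pools, and 0 passed as higher. Over all tested probe sets 4.56% passed as lower and 5.46% as higher. At an unadjusted p below 0.05, 9 members were lower and 0 higher, and the background was 13.1% and 11.2%. The direction was uneven: 32 of 44 log2 changes were below 0, against 54.2% of all tested probe sets. The median log2 change was -0.16 (quartiles -0.36 and 0.01), and that of all tested probe sets was -0.03 (quartiles -0.26 and 0.21). In 16 members both transgenic pools lay below both control pools, in 2 both lay above, and in 26 the groups overlapped. For all tested probe sets these separations had shares of 29.9% and 23.8%. The mean absolute log2 difference of the members was 0.345 between the control pools, 0.290 between the transgenic pools and 0.283 between the group means. Over all tested probe sets it was 0.243, 0.268 and 0.360. A difference of group means averages over pools, so it is not on the same footing as a difference of single pools.

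**Figure D1:**
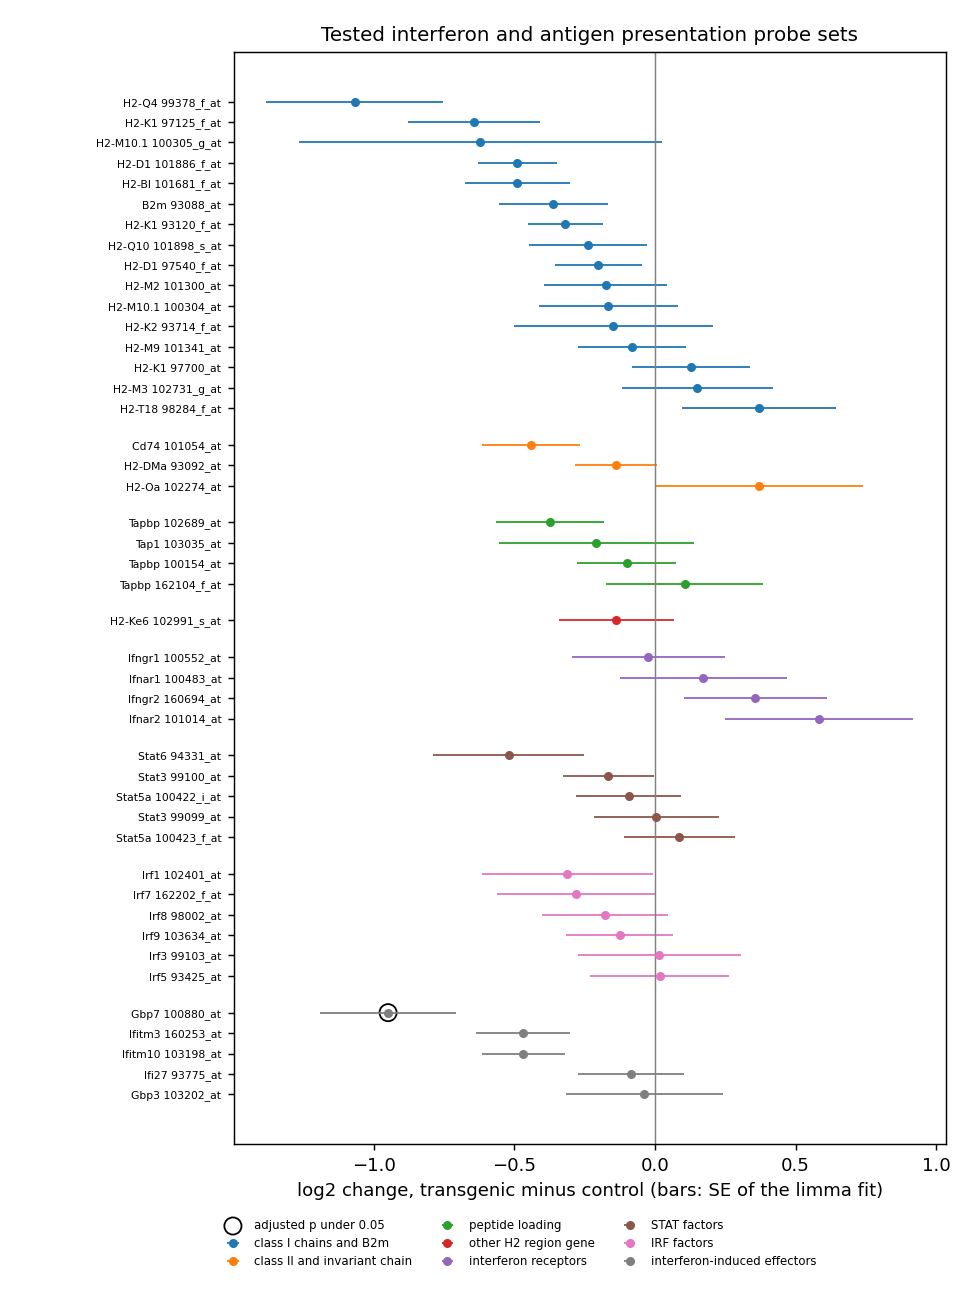
Log2 change, transgenic minus control, of the 44 tested member probe sets (points) with the SE of the limma fit (bars), coloured by role. The circled point, Gbp7, is the one with an adjusted p below 0.05, and most points of class I genes and of interferon-induced effectors lie left of 0, while 3 of 4 receptor probe sets lie right of it.

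Interferon-induced effectors are the proteins that carry out the response, and 5 of their 28 probe sets were bright enough to test. Gbp7, a guanylate-binding protein of a family of large GTPases that act against intracellular microbes, read 126.5 and 166.3 in control pools and 71.4 and 79.1 in transgenic pools. Both transgenic pools thus lay below both control pools, and the fall was 1.93-fold (log2 change -0.95 ± 0.24 SE, 95% interval -1.49 to -0.40, adjusted p = 0.0376). This call depended on single pools: the adjusted p was 0.224 without control replicate 2, 0.158 without transgenic replicate 1 and 0.140 without transgenic replicate 2. It was also 0.0525 without the intensity trend in the variance and 0.260 with every probe set tested, and over all settings it ran from 0.0255 to 0.260. The log2 change stayed between -1.15 and -0.75 in each setting that tested it. Gbp7 lies beside Gbp3 in the genome, with Gbp2b and Gbp2 next in line. Gbp3 read 82.4 and 68.5 in control pools and 80.1 and 66.9 in transgenic pools (log2 change -0.04 ± 0.28), and these groups overlapped. Gbp2b was below the floor on every array, and Gbp2 was above it on 1 transgenic array, at 27.1.

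The interferon-induced transmembrane proteins were the next effectors by p. Ifitm3, which blocks the entry of enveloped viruses into cells, read 311.3 and 375.1 in control pools and 257.6 and 236.7 in transgenic pools. Ifitm10, a relative in the same family, read 616.2 and 639.5 against 493.8 and 417.5. In both the groups were apart, with log2 changes of -0.47 ± 0.17 and -0.47 ± 0.15, but neither passed (adjusted p = 0.120 and 0.0785). The dimmer Ifitm6 read 51.5 and 49.7 against 34.6 and 36.2 and Ifitm1 read 43.4 and 50.5 against 41.1 and 53.5, and both were below the filter. Ifitm2, also below it, read 61.7 and 32.1 against 34.0 and 27.1. Means were thus lower in transgenic pools for 4 of the 5 Ifitm genes, and the log2 change of Ifitm1 was near 0. Ifi27, a small mitochondrial protein induced by type I interferon, read 420.8 and 556.2 in control and 397.8 and 523.1 in transgenic pools (log2 change -0.08 ± 0.19), so the groups overlapped.

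Several of the genes often read as signs of an interferon response had little or no signal in either group. In this role 12 of 28 probe sets were at or below the floor on all 4 arrays, among them those of Cxcl10, a chemokine that draws T cells, Ifit1, which binds foreign RNA, Oas1g, an oligoadenylate synthetase, Ifi47 and Ifi35. Usp18, which removes Isg15 from proteins, exceeded the floor on 1 array, at 20.2 in a control pool. Isg15 read 66.2 and 47.6 in control pools and 12.3 and 87.3 in transgenic pools. The transgenic pools of Isg15 thus held both the lowest and the highest value of the 4. Ifit3 read 37.6 and 45.6 against 18.3 and 36.9, while Ifit2 read 7.2 and 4.7 against 17.4 and 24.5 and was above the floor on 1 array. The RNA sensor Ifih1 read 62.8 and 45.2 in control and 49.9 and 40.6 in transgenic pools. A value at the floor does not show that an RNA was absent. The probe set of Cnp, an oligodendrocyte marker, also read 7.9 or less on every array.

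**Figure D2:**
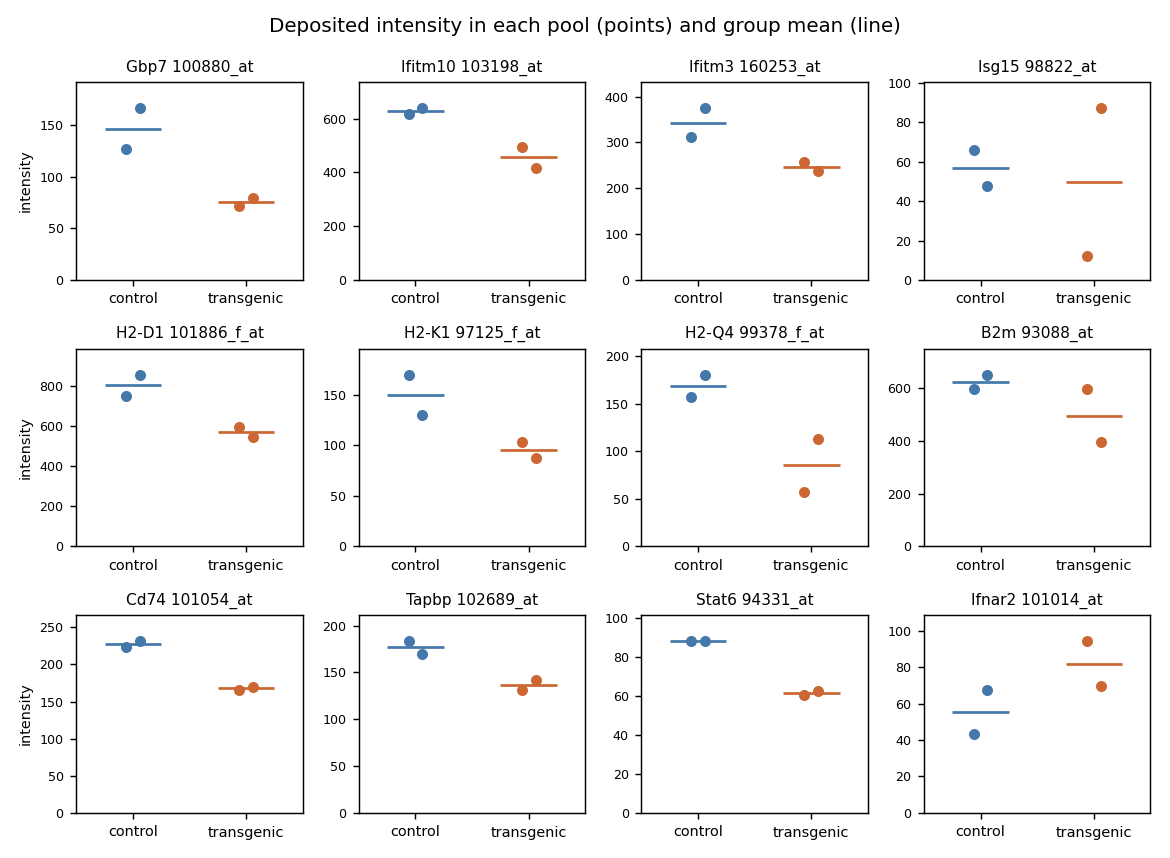
Deposited intensity of 12 member probe sets in each pool (points; left, control; right, transgenic) with the mean of each group (line); each panel has its own linear axis from 0. For a gene with several probe sets the one of smallest p is shown, so separated groups are more frequent here than among the tested members. Of those 44, the groups overlapped in 26. Gbp7, H2-D1, Cd74 and Stat6 show groups that do not overlap, and Isg15 shows transgenic pools at 12.3 and 87.3. Ifnar2 is the panel with both transgenic pools above both control pools.

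Class I genes with B2m were the role with the most tested probe sets, 16 of 25, and 13 of the 16 had a log2 change below 0. None of the 16 passed with limma, 5 had an unadjusted p below 0.05 and all 5 were lower. Among all tested probe sets 54.2% had a log2 change below 0, and 13.1% were lower at an unadjusted p below 0.05. All 5 have probes that match a family of related sequences, so they are not readings of separate genes. The median log2 change was -0.22. H2-D1, a classical class I heavy chain, read 747.5 and 854.9 in control pools and 596.2 and 544.2 in transgenic pools at 101886_f_at. The groups did not overlap, and the log2 change of -0.49 ± 0.14 (95% interval -0.80 to -0.18) just missed the threshold, with an adjusted p of 0.0566, and of 0.0484 with a filter at the 60th percentile. H2-Q4, a nonclassical class I gene, read 156.9 and 180.5 against 57.0 and 113.1, with the transgenic pools lower but far from each other (log2 change -1.07 ± 0.31, adjusted p = 0.0644). It passed without control replicate 1 (adjusted p = 0.0253) or transgenic replicate 2 (0.0385). H2-K1, the other classical heavy chain measured, read 169.7 and 130 against 103.4 and 87.6 at 97125_f_at (log2 change -0.64 ± 0.23, adjusted p = 0.124).

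Probe sets of the same class I gene did not all move together. A second H2-K1 probe set, 93120_f_at, read 643.4 and 665.0 in control pools and 531.6 and 517.2 in transgenic pools (log2 change -0.32 ± 0.13, adjusted p = 0.175). The third, 97700_at, read 122.2 and 116.9 against 139.4 and 122.2, a log2 change of 0.13 ± 0.21, and its groups overlapped in rank, with a value of 122.2 in each. For H2-D1 the probe set 97540_f_at read 372.0 and 437.8 against 359.5 and 343.0, and the dim 97541_f_at read 44.4 and 44.1 against 10.4 and 35.7. All 3 of H2-D1 thus had lower values in both transgenic pools, and H2-K1 had this at 2 of 3. The suffix f marks probe sets whose probes match a family of related sequences, so signal of one class I chain cannot be told apart from that of its relatives. Of 11 tested member probe sets of this kind, 6 were lower in both transgenic pools and 8 had a log2 change below 0, and the 28 probe sets without a suffix had 10 and 20. Over all tested probe sets the shares were 23.0% and 46.3% for the sequence-family kind, and 30.9% and 55.2% for those without a suffix. Without suffixed probe sets the median log2 change of the members was -0.13.

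H2-Bl, another class I gene, read 206.5 and 205.1 in control pools and 135.6 and 158.6 in transgenic pools (log2 change -0.49 ± 0.19, adjusted p = 0.141). B2m, the light chain shared by all class I molecules, read 596.3 and 650.7 against 597.2 and 393.6. One transgenic pool of B2m lay within the control range, and the log2 change was -0.36 ± 0.19 (95% interval -0.80 to 0.07). A probe set annotated to both H2-T3 and H2-T18, 96976_f_at, is not a member and was lower in both transgenic pools (log2 change -0.43). By contrast, H2-T18 at 98284_f_at, a sequence-family probe set, had the highest log2 change among the tested ones of the class. H2-T18, which encodes a thymus leukaemia antigen, had a log2 change there of 0.37 ± 0.27, from 251.6 and 427.2 to 533.6 and 337.1. Its control pools differed by more than its group means, and without control replicate 2 it passed as higher (log2 change 0.75, adjusted p = 0.0303). H2-K2 also differed within groups, with 262.4 and 586.9 in control and 269.1 and 466.4 in transgenic pools, and it passed as lower without control replicate 1 (adjusted p = 0.0386). H2-M10.1 at 100305_g_at read 31.3 and 175.2 in control pools and 48.7 and 47.6 in transgenic pools, and passed as lower without control replicate 1 (adjusted p = 0.000429). For these 3 genes 1 control pool set the direction or the call. The remaining tested class I genes, H2-Q10, H2-M2, H2-M3 and H2-M9, had log2 changes from -0.24 to 0.15. The dim probe set H2-D4 101653_f_at was untested, with 60 and 74.2 in control and 12.1 and 11, below the floor, in transgenic pools. That is at least 3.39-fold lower. It was picked once its values had been seen.

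Peptide loading genes showed small differences. Tapbp, the tapasin that holds class I chains at the peptide transporter, had 3 probe sets. At 102689_at it read 183.5 and 170.0 in control and 130.8 and 142.3 in transgenic pools (log2 change -0.37 ± 0.19, adjusted p = 0.275). At 100154_at it read 196.6 and 199.4 against 180.3 and 189.1 (-0.10 ± 0.17), and at 162104_f_at 213.1 and 137.4 against 234.0 and 144.8 (0.11 ± 0.28). The first pair of Tapbp probe sets had both transgenic pools lower, and the third overlapped. Tap1, a subunit of the transporter, read 53.7 and 70.4 against 43.8 and 64.6 (-0.21 ± 0.35) with overlapping groups. Its partner Tap2 was under the filter, at 42.1 and 33.1 against 31.5 and 23.9. Of the 4 tested probe sets in this role 0 passed with limma, also at an unadjusted p below 0.05. Over all tested probe sets 4.56% passed as lower and 5.46% as higher. At an unadjusted p below 0.05 the shares were 13.1% and 11.2%. The same shares stand beside the class II, receptor, STAT and IRF counts below. A count of 0 among so few probe sets does not show that a role was unchanged.

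Class II genes were mostly dim, as only 3 of 12 probe sets could be tested, and 0 passed (1 was lower at an unadjusted p below 0.05). Cd74, the invariant chain that guides class II molecules to the compartments where they bind peptide, read 223.5 and 231.4 in control pools and 165.7 and 169.5 in transgenic pools. Pools of a group were close and the groups were apart, at 1.36-fold (log2 change -0.44 ± 0.17, 95% interval -0.83 to -0.05, adjusted p = 0.152). H2-DMa, which helps exchange peptides on class II, read 539.9 and 632.0 against 550.3 and 511.1 at 93092_at (-0.14 ± 0.15) with overlapping groups. H2-Oa, part of a protein that restrains that exchange, read 34.6 and 55.3 against 55.5 and 57.5 (0.37 ± 0.37), and both transgenic pools were above both control pools by a narrow margin. H2-Ab1, a chain of a classical class II molecule, was below the filter: 47.3 and 46.4 in control and 19.1 and 10.8, under the floor, in transgenic pools, so at least 2.38-fold lower. With every probe set tested, H2-Ab1 was the 1 member that passed (adjusted p = 0.0287). Both transgenic values are at the floor there, which sets their spread to 0. H2-Eb1, a chain of the other classical class II molecule, read 30.5 and 56.0 against 25.5 and 26, and a second H2-DMa probe set (162346_f_at) 71.8 and 51.2 against 30.9 and 27.4. In contrast, H2-DMb1 read 26.5 and 52.0 against 85.2 and 50.2, and H2-DMb2 read 12.5 and 53.4 against 30.0 and 99.2. The dim class II probe sets thus pointed both ways. Further H2 region genes, H2-Ke6 and H2-Pa, gave 1 tested probe set, that of H2-Ke6 (102991_s_at), which read 175.5 and 144.3 against 155.1 and 135.1 (-0.14 ± 0.20).

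**Figure D3:**
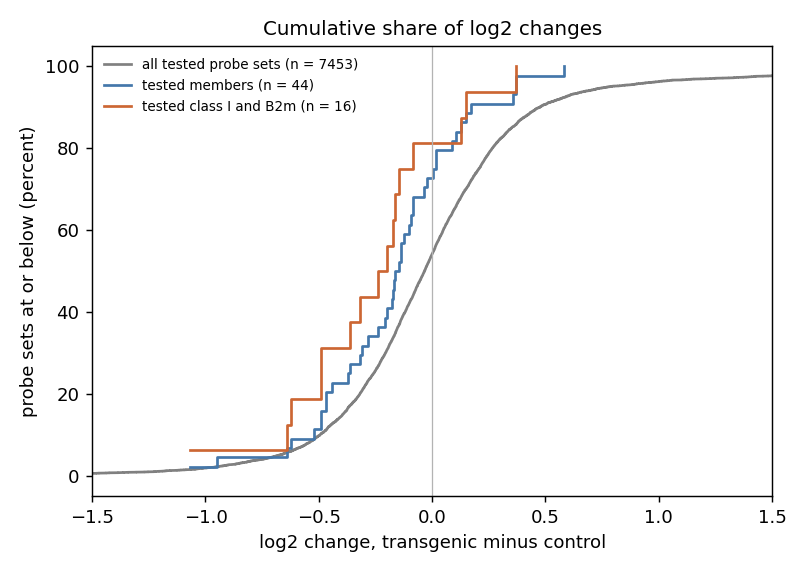
Share of probe sets (vertical axis, percent) with a log2 change, transgenic minus control, at or below the value on the horizontal axis, for all 7453 tested probe sets, the 44 tested members and the 16 tested probe sets of class I genes and B2m. The horizontal axis is limited to 1.5 in either direction; at 0 the curves stand at 54.2%, 72.7% and 81.3%.

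The interferon receptors had the only median above 0 among the roles with more than 1 tested probe set, 0.26 over 4 probe sets, and 0 passed with limma, also at an unadjusted p below 0.05. Ifnar2, the chain of the type I receptor that binds STAT proteins, read 43.3 and 67.7 in control pools and 94.4 and 69.7 in transgenic pools at 101014_at. The groups were narrowly apart (log2 change 0.58 ± 0.34, adjusted p = 0.332). A second Ifnar2 probe set, 101015_s_at, was under the filter and pointed the other way, with 53.2 and 54.7 against 38.4 and 37.5. Ifnar1 read 176.1 and 91.5 against 154.1 and 132.8 (0.17 ± 0.30), with both transgenic pools between the control pools. For the interferon gamma receptor, Ifngr2 read 119.8 and 166.3 against 147.0 and 222.0 (0.36 ± 0.25) and Ifngr1 read 93.6 and 71.1 against 76.2 and 84.6 (-0.02 ± 0.27). Both overlapped.

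STAT factors carry the signal from receptor to nucleus, and 5 of 7 probe sets were tested with 0 passing, also at an unadjusted p below 0.05. Stat6, which acts downstream of interleukin 4 rather than of interferon, read 88.2 in both control pools and 60.4 and 62.7 in transgenic pools. This was the clearest separation in the role (log2 change -0.52 ± 0.27, adjusted p = 0.277). Stat3 read 322.9 and 313.0 against 306.1 and 262.2 at 99100_at (-0.17 ± 0.16), and 478.0 and 464.9 against 614.2 and 364.2 at 99099_at (0.00 ± 0.22). Stat5a read 212.1 and 238.4 against 235.2 and 188.9 at 100422_i_at (-0.09 ± 0.19) and 143.5 and 168.2 against 175.8 and 154.8 at 100423_f_at (0.09 ± 0.20). Apart from Stat3 at 99100_at, these groups overlapped. Stat4 and Stat5b were dim, at 30.5 or less on every array.

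The IRF factors bind the IRF sites of interferon-induced promoters. Of 9 probe sets 6 were tested, and 0 passed, also at an unadjusted p below 0.05. Irf1, an early interferon gamma target that switches on class I genes, read 62.6 and 83.4 in control and 57.1 and 59.4 in transgenic pools (log2 change -0.31 ± 0.30, adjusted p = 0.588). Irf9, a DNA-binding factor of the response to type I interferon, read 151.7 and 162.1 against 143.0 and 144.5 (-0.13 ± 0.19). Both had transgenic pools below the control pools, and neither passed. Irf8, a factor of microglia and other myeloid cells, read 134.1 and 113.3 against 116.2 and 102.1 (-0.18 ± 0.22), and Irf7, the amplifier of type I interferon, read 81.7 and 115.8 against 90.2 and 71.0 (-0.28 ± 0.28) at 162202_f_at, a sequence-family probe set. The other Irf7 probe set, 104669_at, was below the floor on all 4 arrays, at 13.6 or less. Irf3 and Irf5 had log2 changes of 0.02 each. Irf3, Irf5, Irf7 and Irf8 overlapped between groups. Irf4, which belongs to lymphocytes, was below the floor on every array.

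Other genes of the pathway, which the naming rule does not cover, were taken from a list. Of its 78 genes 62 were on the array and 34 were tested, by 38 probe sets. Of these 3 passed as higher and 2 as lower, and the median log2 change was -0.09. The shares among all tested probe sets were 5.46% and 4.56%, with a median of -0.03. Ptpn1, a tyrosine phosphatase that dephosphorylates JAK kinases, read 93.6 and 81.6 in control and 892.9 and 838.5 in transgenic pools, a 9.90-fold rise (log2 change 3.31 ± 0.16, adjusted p = 1.53e-06). Pias1, a SUMO ligase that restrains cytokine signalling, read 47.8 and 39.4 against 170.4 and 205.1, a 4.31-fold rise (adjusted p = 0.000581, and 0.121 with every probe set tested). Each was read by 1 probe set. Among other brakes on the pathway Socs1 read 64.7 and 23.0 against 96 and 64 and Pias3 at 161994_f_at 114.1 and 122.4 against 83.5 and 87.2, and neither passed. Pdia3, a chaperone of the class I loading complex, rose 1.73-fold (adjusted p = 0.0454, and 0.260 without transgenic replicate 2). Adar, an RNA-editing enzyme with an interferon-induced form, fell 2.06-fold at 96188_at, from 201.1 and 161.1 to 72.1 and 106.0 (adjusted p = 0.0295). The interferon-inducible surface protein Ly6e fell 1.36-fold at 101487_f_at, a sequence-family probe set, from 4832.7 and 4540.4 to 3621.8 and 3271.6 (adjusted p = 0.0280). Its dim probe set 101488_r_at was under the filter and pointed the other way, with 21.1 and 17.3 against 26.5 and 27.4. The adjusted p of Adar was 0.104 without control replicate 1, 0.159 without transgenic replicate 1 and 0.0640 without transgenic replicate 2, and that of Ly6e was 0.144, 0.0661 and 0.142. Without the intensity trend the calls of Pdia3, Adar and Ly6e were lost, with adjusted p of 0.154, 0.0765 and 0.179. The kinases Jak1, Jak2, Jak3 and Tyk2 had log2 changes between -0.42 and 0.23 and did not pass, and the immunoproteasome subunit Psmb8 had -0.24. The probe sets of the interferons Ifng and Ifnb1 read 23.8 or less on every array, those of Ifna4 32.8 or less, and that of Ifna2 22.8 and 44.7 against 16.7 and 11.7.

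Some markers of the cells that carry these genes moved too, and their part in the values above was not tested. In bulk tissue fewer cells of a type and less RNA per cell cannot be told apart. The 21 probe sets of microglia and macrophage markers summed to 4725 and 4851 in control and 4298 and 3956 in transgenic pools. Of 12 tested ones 11 had a log2 change below 0, and 1 passed: Tyrobp, a signalling adaptor of microglia, fell by 0.95 on the log2 scale (adjusted p = 0.0127, and 0.0540 and 0.112 without transgenic replicate 1 or 2). Among all tested probe sets 54.2% had a log2 change below 0 and 4.56% passed as lower. The microglial marker above 0 was Csf1r at 104354_at, which did not pass. It read 443.7 and 502.4 in control and 602.8 and 508.0 in transgenic pools. The leukocyte marker Ptprc was below the floor on every array. The 95 members summed to 10962 and 12126 against 10305 and 9569, or 86.1% of control, and the microglial sum was 86.2%. The pathway list of other genes summed to 15441 and 15508 against 15262 and 15090, or 98.1% of control. Endothelial and mural markers summed to 1563 and 1567 against 2008 and 1750, with 2 of 9 tested probe sets, both of Flt1, higher. Their median log2 change was -0.02 and 5 of 9 were below 0, among them Pecam1 (-0.18) and Vwf (-0.36), which did not pass. Blood markers summed to 2980 and 2622 against 8709 and 7114: Hba-a1, an alpha-globin gene, rose by 1.58 on the log2 scale (adjusted p = 3.27e-05) and Alas2, a haem synthesis enzyme of red cells, by 1.30 (adjusted p = 0.00645). Hba-a1 made up most of that sum, with 2678 and 2325 against 8257 and 6741, and the neutrophil gene Elane had a log2 change of -0.03. Lymphocyte markers summed to 478.2 and 320.7 against 402.8 and 340.7, with 0 of 2 tested passing, and the T cell receptor genes Cd3d, Cd3e and Cd3g read 18.7 or less on every array. Markers of neurons, astrocytes, oligodendrocytes and choroid plexus or meninges summed to 89.1%, 89.9%, 86.5% and 83.0% of control, and the neuronal markers were strong in all pools, with sums from 24864 to 29273. The sums follow the brightest probe sets: of 15 tested astrocyte probe sets 3 passed as higher, both of the water channel Aqp4 and that of Fabp7, and 3 as lower. Of 11 tested oligodendrocyte probe sets 6 had a log2 change above 0, and 1 passed, as lower. MHC genes also differ in sequence between mouse strains, and with the strain of the transgenic mice not given, strain and transgene cannot be told apart for the H2 probe sets.

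**Figure D4:**
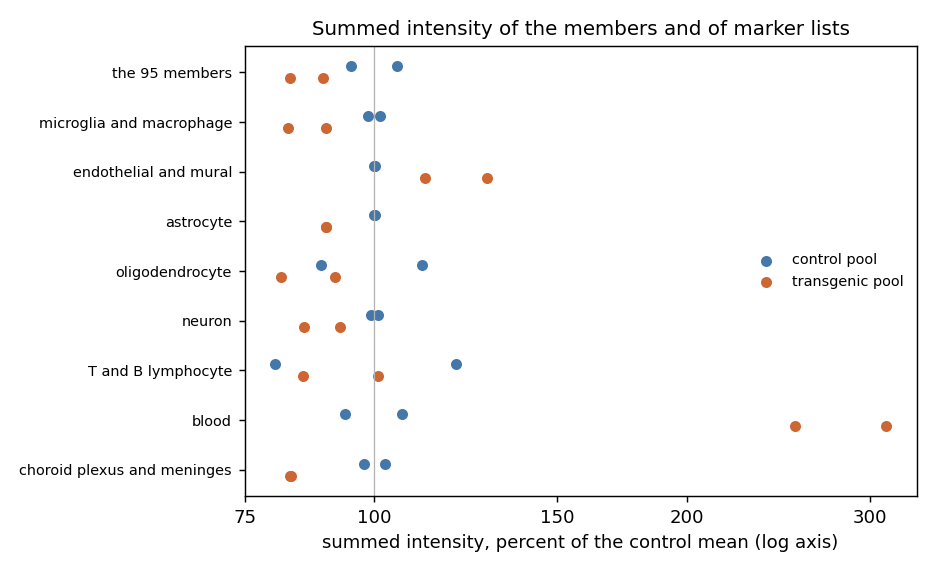
Summed deposited intensity of the 95 members and of 8 marker lists in each pool, as a percent of the mean of the control pools (log axis; blue, control pools; orange, transgenic pools). The members and the microglial markers lie below 100 in both transgenic pools, at 86.1% and 86.2% of control on average. Markers of neurons, astrocytes, oligodendrocytes and choroid plexus or meninges also lie below 100 in both, at 83.0% to 89.9% on average. Blood markers lie far above 100. The pathway list, at 98.1% of control, is not drawn.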

How the data were processed

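Single-colour arrays of 2 control and 2 transgenic pools were read from a deposited table with 1 intensity per probe set and array. The unit was read from the values, since no header names it, and the sources used here name no software of the authors. Each deposited intensity column had a trimmed mean (2nd to 98th percentile) between 248.4 and 248.5, so the arrays were on 1 scale. Groups come from the sample titles.

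From 12488 probe sets 66 controls were removed. Symbols come from the platform annotation, and all 95 member probe sets matched a RefSeq gene identifier. Of all probe sets 10833 had 1 gene, 396 several and 1193 none. Values were floored at the 25th percentile (19.675), log2-transformed, filtered at the 40th percentile of the mean and tested in R 4.3.3 with limma 3.58.1 (lmFit, eBayes with an intensity trend, two-sided, 2 residual and 7.51 prior degrees of freedom), after a test on simulated data. All SEs, intervals and adjusted p-values come from this fit. Folds are ratios of geometric means of floored values.

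The rule for the members uses names alone, but the members, role groups and lists were proposed with earlier results of these data known. Values are printed for each member that passed, the 3 of smallest p per role and further members by role. Probe positions are not given, since no build is named. No batch is named either, and batch and group cannot be told apart.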

Additional observations from a re-analysis of the deposited data

How the results depend on the processing

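With 2 pools per group, single arrays carried much of the evidence. The count of members that passed as lower, 1, was 0 without the intensity trend and 2 with the replicate block, and ran from 0 to 4 over the fits with 1 array left out. The count of members that passed as higher was 0 in these settings. Over the fits with 1 array left out, the median log2 change of the members ran from -0.25 to -0.09. The block added H2-Q4 (adjusted p = 0.0221). The titles share replicate numbers but name no pairing, and the differences between pools 1 and 2 correlated at 0.0555 between groups over all tested probe sets and at 0.277 over the members, and with 2 pairs and no label this sets no pairing, so the numbers were not treated as pairs. Other floors, filters, scalings and the robust prior left 1 member lower and 0 higher, also with 1 probe set per gene, though with every probe set tested the member was H2-Ab1, and with the filter at the 60th percentile, which left Gbp7 untested, it was H2-D1. In the fits with 1 array left out, a lone pool was assumed to vary like the other group. The median log2 change of the members stayed below 0 in each setting, between -0.25 and -0.09. Log2 changes near 0 changed sign for Stat3 99099_at with median scaling (-0.0089) and quantile normalization (-0.016) and for Irf5 with quantile normalization (-0.00024). Leaving out 1 array changed the sign of 17 of 44 tested probe sets, with these ranges: Stat5a 100423_f_at -0.028 to 0.20, Ifngr1 100552_at -0.22 to 0.18, H2-Ke6 102991_s_at -0.28 to 0.00454, Gbp3 103202_at -0.17 to 0.10, H2-T18 98284_f_at -0.0104 to 0.75, H2-M10.1 100305_g_at -1.86 to 0.62, Ifnar1 100483_at -0.30 to 0.64, Tapbp 162104_f_at -0.24 to 0.45, Irf5 93425_at -0.18 to 0.22, H2-K2 93714_f_at -0.73 to 0.43, Ifi27 93775_at -0.29 to 0.12, Stat3 99099_at -0.37 to 0.38, Irf3 99103_at -0.23 to 0.26, Tap1 103035_at -0.49 to 0.071, H2-M10.1 100304_at -0.47 to 0.14, Stat5a 100422_i_at -0.25 to 0.065 and H2-M9 101341_at -0.22 to 0.050.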

Other observations

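Besides the members, 15 probe sets were annotated to several genes at once, at least 1 of them a gene of the interferon and MHC families. None of their values is assigned to a single gene. Of the 6 that were tested 1 passed: 98438_f_at read 442.9 and 448.9 in control pools and 302.1 and 219.5 in transgenic pools (log2 change -0.79 ± 0.18 SE, adjusted p = 0.0241). Among all tested probe sets 4.56% passed as lower. Both transgenic pools lay below both control pools in 4 of the 6, against 29.9% of all tested probe sets. The 6 are all annotated to H2 genes, so their signal may be shared with that of member probe sets. Probe set 98472_at read 166.5 and 159.2 against 110.8 and 64.3 (log2 change -0.95, adjusted p = 0.0636), and 96976_f_at read 222.7 and 223.3 against 160.4 and 171.2 (log2 change -0.43, adjusted p = 0.167). Probe set 93865_s_at had the only positive value of the 6, 0.26. These 4 were named after their values were seen.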
